A study of Homo sapiens with 4 samples.

Results

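The genes described here are 10 structural and adhesion-modulating genes of the extracellular matrix and cell surface, chosen by symbol: the tenascin TNC, the proteoglycans BGN, DCN, LUM, VCAN and HSPG2, the syndecans SDC1 and SDC4, and the matricellular proteins THBS1 and SPARC. Matching RefSeq transcript accessions to symbols found all 10 among 17185 named genes, through 13 probe sets, of which DCN had 4 and each other gene had 1. They were measured in KYSE410, a cell line established from a human squamous carcinoma of the oesophagus, after 24 h with the cytokine TNFα (tumour necrosis factor), the cytokine IL1β (interleukin 1β), LPS (lipopolysaccharide of bacterial outer membranes) or PBS (phosphate-buffered saline), the solvent control. Cells of all 4 conditions grew in RPMI medium with fetal bovine serum, penicillin and streptomycin. The experiment was a screen for messenger RNAs that respond to inflammatory stimuli, and no dose is stated in the sources used here. Each condition was 1 culture on 1 single-colour array, so no value has a replicate error, no test was possible, and precision is limited by there being 4 arrays.

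Tenascins and the other matricellular proteins are secreted glycoproteins that modulate how cells attach to the matrix rather than building its scaffold. Proteoglycans carry long sulfated sugar chains that bind growth factors, chemokines and collagen, and syndecans present such chains at the cell surface, where they assist integrins and growth factor receptors. In squamous epithelium syndecan 1 is the main surface heparan sulfate proteoglycan, perlecan lies in the basement membrane, and decorin, lumican, versican and SPARC are made mostly by stromal cells.

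Levels are given as the RMA intensity of a probe set (robust multi-array averaging) on its linear scale or as log2 of it. A gene is called higher or lower on 2 conditions, a difference of at least 2-fold between 2 arrays and a brighter value no lower than a floor. The floor is the median level of all genes, 260.5 in intensity or 8.02 on the log2 scale. A value up to 2 times the random-sequence control set of the same array is described as near background; that limit was 112 with TNFα, 112 with IL1β, 113 with LPS and 108 with PBS. SDC1, SDC4, HSPG2 and THBS1 reached the floor on all 4 arrays, BGN on 3 and TNC on the PBS array alone. DCN, LUM, VCAN and SPARC, as measured by the probe set used for each, were below it on every array. In all, 6 of the 10 genes reached the floor on some array, against 59.8% of all named genes.

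The cultures carried the markers of their label. All 15 squamous epithelial markers measured, among them the keratins KRT5 and KRT14, were above the near-background limit on every array, and their summed intensity was 236845 with TNFα, 202630 with IL1β, 266976 with LPS and 192908 with PBS. Single markers among them differed between arrays. CDH1, E-cadherin of epithelial junctions, had 232 with TNFα, 287 with IL1β and 284 with LPS, against 1209 with PBS, and KRT14, KRT17, TP63 and KRT4 were at least 2-fold higher with LPS than with PBS, as was KRT13 with TNFα. Transcripts of other cell types differed too, on the cytokine arrays as well as on the LPS array. Cardiac muscle markers summed to 51075 with TNFα, 59225 with IL1β, 14543 with LPS and 39182 with PBS over 10 genes, and leukocyte markers to 12200, 15283, 1588 and 9840 in the same order over 14 genes. Within these sums MYH6, a cardiac myosin, had 14709 with TNFα, 17101 with IL1β and 81.3 with LPS, against 9469.8 with PBS, while ACTC1, cardiac actin, made up most of the LPS sum at 12945. The leukocyte gene PTPRC, which encodes CD45, had 1295 with TNFα, 1046 with IL1β and 81.5 with LPS, against 91.5 with PBS. FCGR3A, an antibody receptor, had 2906, 729.7 and 84.8, against 212. LYZ, lysozyme, the largest part of the sum on all but the LPS array, had 5600.3, 10389.6 and 209, against 6917. TYROBP had 838, 1048 and 82.3, against 801. With LPS 4 leukocyte markers were tested and all were lower (LYZ, TYROBP, CD68 and CD79A), where 7.42% of all genes tested were lower. Fibroblast markers, over 12 genes, summed to 3534 with TNFα, 3553 with IL1β, 3997 with LPS and 5487 with PBS. COL6A3, FAP, THY1 and FBN1 were near background on every array, but others were not. ACTA2 was lower with TNFα, at 882 against 2204 with PBS, and S100A4 lower with IL1β, at 638 against 1562. With LPS COL5A1 was higher, at 880.0 against 111 with PBS, and COL1A2 lower, at 237 against 736. Endothelial markers, over 8 genes, summed to 673 with TNFα, 749 with IL1β, 910 with LPS and 1060 with PBS. KDR, TEK and EMCN were near background throughout. PECAM1 was lower with TNFα (127) and LPS (74.1) than with PBS (419). ESAM was higher with LPS, at 309 against 50.9, near background, with PBS. The part of these transcripts in the differences below was not tested.

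TNC and BGN showed the widest ranges of the 10 genes over the 4 arrays, and SDC4 came next. TNC was lower with all 3 stimuli than with PBS, BGN was lower with TNFα and LPS but not with IL1β, and SDC4 was higher with LPS alone. The ranges were 2.75 for TNC, 2.67 for BGN and 1.86 for SDC4 on the log2 scale, against a median range of 0.75 over 10271 genes at the floor on some array. SDC1 had the narrowest range of the genes at the floor, 0.48. In RNA from whole cultures, fewer cells expressing a gene and less RNA per cell cannot be told apart.

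**Figure D1:**
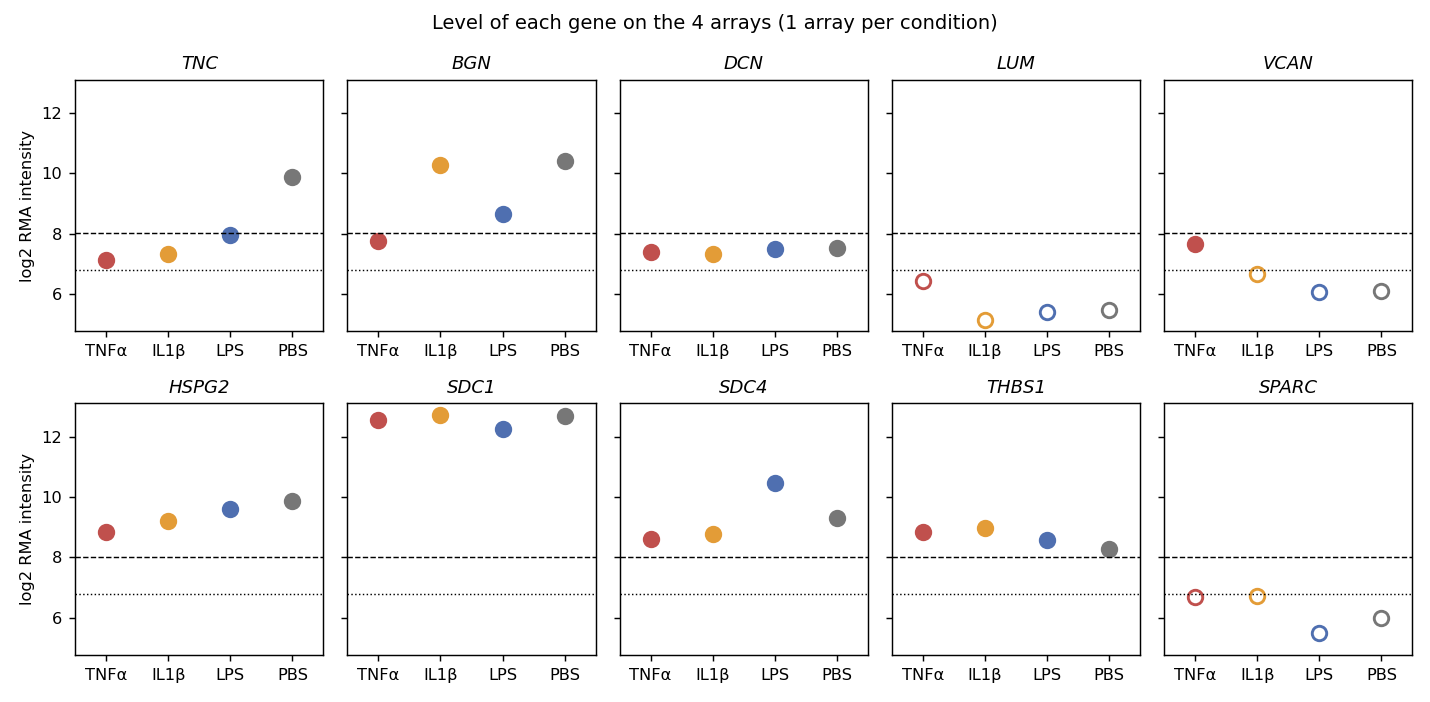
Each panel plots 1 gene, with the log2 RMA intensity on the vertical axis and the TNFα, IL1β, LPS and PBS arrays on the horizontal axis, 1 point per array and no error. The dashed line is the floor of 8.02, the dotted line is the mean near-background limit, and open points are near background; TNC stands above the floor with PBS alone, and LUM and SPARC are near background on all 4 arrays.

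Tenascin C is a large glycoprotein of six-armed shape that loosens cell attachment and is known for its appearance in wounds, inflamed tissue and tumour stroma. TNC had intensities of 141 with TNFα, 159.8 with IL1β and 251 with LPS, against 951 with PBS. The 3 stimulated arrays were thus low and the PBS array alone was high. TNC was 6.75-fold lower with TNFα than with PBS, 5.95-fold lower with IL1β and 3.79-fold lower with LPS, or -2.75, -2.57 and -1.92 as log2 differences. The 3 differences share the single PBS array, so they are not independent of each other. Counting TNC itself, 7 of 9419 genes tested with TNFα were lower by at least as much (0.0743%). So were 25 of 9427 with IL1β (0.265%) and 115 of 9675 with LPS (1.19%). Such counts and shares for other genes below also include the gene itself. Between stimuli the log2 differences of TNC were -0.18 for TNFα minus IL1β, 0.83 for LPS minus TNFα and 0.65 for LPS minus IL1β, none of which was tested, because none of the 3 values reached the floor. Of the 3 other tenascins measured, only TNXB reached the floor; it had 442 with TNFα, 522 with IL1β and 563 with LPS, against 521 with PBS, and was not called. TNR was below the floor and TNN near background on every array.

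The 250 bases before the RefSeq start of TNC (GRCh38.p14, chr9:115118158-115118407, minus strand) are shown because TNC was lower on all 3 stimulated arrays, and capitals mark the GC box GGGCGG.
TNC: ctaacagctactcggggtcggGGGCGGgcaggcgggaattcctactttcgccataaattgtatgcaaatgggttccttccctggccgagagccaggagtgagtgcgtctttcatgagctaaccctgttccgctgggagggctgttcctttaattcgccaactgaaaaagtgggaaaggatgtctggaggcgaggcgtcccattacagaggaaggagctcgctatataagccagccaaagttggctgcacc
The GC box, searched on both strands, lies 229 to 224 bases before the start and occurs in 42.6% of the 35114 promoters of the same length in the RefSeq table. Neither the κB consensus, present in 5.21% of them, nor the AP-1 motif TGANTCA, present in 6.57%, was found in this window on either strand. Its letters cgggaattcc did not count as a κB match, but differ from the match in the SDC4 window, GGGGAATTCC, only in the first base. The TATA box was searched only as TATAAA, present in 10.7% of the promoters, and that form was not found. The letters tatataa near the end of the window were not part of that search.

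Biglycan is a small leucine-rich proteoglycan that binds collagen and, once released from the matrix, is known as a ligand of TLR2 and TLR4. BGN had intensities of 214 with TNFα, 1251 with IL1β and 404 with LPS, against 1363 with PBS. The IL1β and PBS arrays were high, and the TNFα and LPS arrays were low. BGN was 6.36-fold lower with TNFα than with PBS and 3.37-fold lower with LPS, while the IL1β array differed by only -0.12 on the log2 scale. Among the genes tested, 11 with TNFα (0.117%) and 152 with LPS (1.57%) were lower by at least as much. Set directly against IL1β, BGN was 5.84-fold lower with TNFα and 3.10-fold lower with LPS, and only 5 of 9270 genes were lower by as much with TNFα than with IL1β. LPS exceeded TNFα by 0.92, short of 2-fold. Of its receptors, TLR4, in the brightest of its 3 probe sets, was 413 with TNFα, at least 3.82-fold higher than with PBS. It was near background with IL1β (66), LPS (83.8) and PBS (82.2). TLR2 was 235 with TNFα against 51.6 with PBS, and was below the floor on every array.

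The 250 bases before the start of BGN (GRCh38.p14, chrX:153494730-153494979, plus strand) are given for comparison with TNC, with GC boxes of either strand in capitals.
BGN: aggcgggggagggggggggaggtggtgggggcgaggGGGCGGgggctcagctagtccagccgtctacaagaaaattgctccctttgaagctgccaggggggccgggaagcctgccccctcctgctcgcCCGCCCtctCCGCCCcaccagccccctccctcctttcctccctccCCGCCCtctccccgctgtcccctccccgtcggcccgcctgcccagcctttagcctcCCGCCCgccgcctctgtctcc
This window is 74.0% G and C, against 54.8% for TNC, and holds 5 GC boxes. It held no match to the κB consensus, the AP-1 motif or TATAAA.

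Decorin, the closest relative of biglycan, and lumican bind and space collagen fibrils. DCN gave 166 with TNFα, 162 with IL1β, 181 with LPS and 182 with PBS in its brightest probe set, NM_133506, a range of 0.17 on the log2 scale. The other 3 probe sets did not repeat that flat profile. NM_133504 had 136, 141 and 269 with TNFα, IL1β and LPS and 91.4 with PBS, so that it was highest with LPS, where it alone passed the floor. NM_133505 had 106, 151 and 74.6 with the same stimuli and 223 with PBS, so that it was lowest with LPS. NM_001920 had 64, 89.7, 111 and 134 in that order, near background on all but the PBS array. The LPS minus PBS differences of the 4 sets were -0.01, 1.56, -1.58 and -0.28 on the log2 scale, so no direction is given for DCN. LUM was 86.7 with TNFα, 35.4 with IL1β, 41.9 with LPS and 44.7 with PBS, near background on every array, and has no fold.

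**Figure D2:**
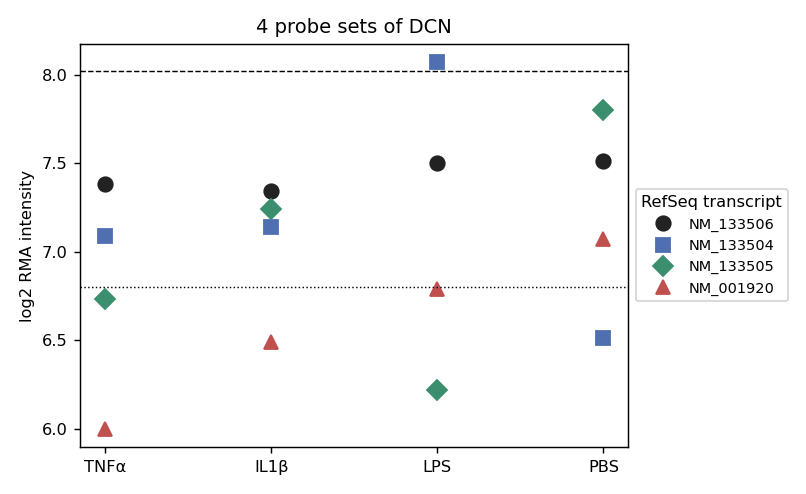
The log2 RMA intensity of the 4 DCN probe sets is plotted for the TNFα, IL1β, LPS and PBS arrays, 1 symbol per RefSeq transcript and 1 value per array. The dashed line is the floor and the dotted line the mean near-background limit; on the LPS array the sets spread from 6.22 to 8.07, with NM_133504 the brightest and NM_133505 the dimmest.

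In the groups of related genes that follow, a gene was tested where it reached the floor on either array of a comparison, and over all genes tested 6.76% were called with TNFα, 6.70% with IL1β and 16.2% with LPS against PBS. Of 11 further small leucine-rich proteoglycans measured, 4 were tested with TNFα, 3 with IL1β and 3 with LPS. Of these 1 was lower with TNFα and none was called with IL1β or LPS. That one was OMD, osteomodulin of mineralised matrix, at 211 with TNFα against 479 with PBS. The median log2 differences of this group, genes below the floor included, were 0.23, 0.20 and 0.04 with TNFα, IL1β and LPS, against -0.03, -0.03 and 0.02 over all genes.

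Versican is a large chondroitin sulfate proteoglycan that binds hyaluronan and swells the provisional matrix. VCAN had 200.0 with TNFα, 101 with IL1β, 66.4 with LPS and 67.6 with PBS. Only the TNFα value stood above the near-background limit, at least 1.85-fold over PBS, and it stayed below the floor, so VCAN was not tested. Of 13 hyalectans, hyaluronan synthases and link proteins, 5 were tested with TNFα, 4 with IL1β and 5 with LPS; 1 was higher with TNFα, none with IL1β and 1 with LPS, and none was lower. With TNFα it was the link protein HAPLN2 (354 against 141 with PBS), and with LPS its relative HAPLN1, which stabilises the bond of versican to hyaluronan, at 586 against 60.7, near background, with PBS, at least 5.42-fold higher.

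Perlecan, the basement membrane heparan sulfate proteoglycan, gave a graded picture. HSPG2 had intensities of 458 with TNFα, 587 with IL1β and 772 with LPS, against 936 with PBS. All 3 stimulated arrays were below PBS, in the order PBS, LPS, IL1β, TNFα that TNC also showed. Only the TNFα value met the size rule, at 2.04-fold lower, and neither loess centring (-0.98 on the log2 scale) nor an offset before log2 (-0.96) kept it there. The IL1β and LPS differences from PBS were -0.67 and -0.28, and 16.2% and 67.5% of genes tested differed by at least as much in either direction.

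Syndecan 4 is a widespread surface proteoglycan of focal adhesions that cooperates with integrins. SDC4 had intensities of 392 with TNFα, 438 with IL1β and 1425 with LPS, against 631 with PBS. The LPS array alone was high, and both cytokine arrays lay below PBS. SDC4 was 2.26-fold higher with LPS than with PBS, a log2 difference of 1.18, and 601 of 9675 genes tested (6.21%) were higher by at least as much. The differences of TNFα (-0.69) and IL1β (-0.53) from PBS did not meet the size rule. Directly, SDC4 was 3.64-fold higher with LPS than with TNFα and 3.25-fold higher than with IL1β, sizes reached upward by 1.85% and 2.78% of the genes tested. TNFα and IL1β differed by -0.16.

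The 250 bases before the start of SDC4 (GRCh38.p14, chr20:45348425-45348674, minus strand) are shown because they hold the only κB consensus match in the 9 windows searched, in capitals; NF-κB, the factor that binds such sites, is known to be activated by all 3 agents.
SDC4: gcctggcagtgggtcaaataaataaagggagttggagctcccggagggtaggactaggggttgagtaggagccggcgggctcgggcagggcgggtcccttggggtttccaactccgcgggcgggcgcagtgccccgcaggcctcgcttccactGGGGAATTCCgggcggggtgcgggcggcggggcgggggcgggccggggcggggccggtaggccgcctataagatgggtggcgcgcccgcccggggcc
The match lies 97 to 88 bases before the start. The 9 windows belong to 8 of the genes, and DCN and LUM had none in the table used here. In those 9 windows neither the AP-1 motif nor TATAAA, the only form of the TATA box searched, was found. A match is a description of the letters and not evidence of binding.

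Syndecan 1 differed little between arrays. SDC1 had intensities of 6049.8 with TNFα, 6776 with IL1β and 4868 with LPS, against 6667 with PBS. The LPS array was the lowest, by 0.45 on the log2 scale from PBS, a size that 49.5% of the genes tested reached in either direction. TNFα and IL1β differed from PBS by -0.14 and 0.02. On the LPS array SDC1 was thus at its lowest and SDC4 at its highest, and only SDC4 met the size rule.

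Among 15 further proteoglycans and part-time proteoglycans, mostly of the heparan sulfate kind, 1 of 11 tested was higher and none lower with TNFα, 1 higher and 1 lower of 11 with IL1β, and 3 higher and 1 lower of 12 with LPS. SRGN, serglycin, the proteoglycan of secretory granules, was 359.6, 358 and 381 with TNFα, IL1β and LPS, against 140.4 with PBS. Its log2 differences of 1.36, 1.35 and 1.44 share the PBS array. With LPS the glypican GPC1, a lipid-anchored heparan sulfate proteoglycan, was 1323 against 572 with PBS, 2.31-fold higher. GPC5 was 304 with LPS against 53.8, near background, with PBS, at least 2.81-fold higher, while SDC3 was 155 against 329, 2.12-fold lower. TGFBR3, betaglycan, a co-receptor of TGF-β, was 203 with IL1β against 434 with PBS, 2.14-fold lower.

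Thrombospondin 1 binds CD47 and CD36 and can activate latent TGF-β. THBS1 had intensities of 462 with TNFα, 506 with IL1β and 378 with LPS, against 311 with PBS. All 3 stimulated arrays were above PBS, and none by 2-fold, with log2 differences of 0.57, 0.70 and 0.28. In either direction 21.9%, 14.9% and 67.0% of genes tested differed by at least as much. SPARC, a collagen-binding protein that counters adhesion and spreading, had 103 with TNFα, 105 with IL1β, 44.6 with LPS and 62.7 with PBS. These values were near background on every array, so SPARC has no fold.

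Of 24 other thrombospondins and matricellular proteins measured, 7 were tested with TNFα, 8 with IL1β and 12 with LPS. Of those, 0 were higher and 2 lower with TNFα, 1 higher and 1 lower with IL1β, and 4 higher and 4 lower with LPS, where 6.76%, 6.70% and 16.2% of all genes tested were called. CCN5, a growth-restraining member of the CCN family, was 525 with LPS against 52, near background, with PBS, at least 4.86-fold higher. CCN3, of the same family, was 552 against 94.9, at least 5.10-fold higher, and SMOC1, a relative of SPARC, was 343 against 103, at least 3.17-fold higher. FBLN5 was the other higher gene. MFAP2, a microfibril protein, was 184 with LPS against 839.9 with PBS, 4.56-fold lower, and COMP, CCN2 and FBLN2 were lower too. With TNFα the lower genes were FBLN2, fibulin 2 of basement membranes, at 409 against 1351 with PBS, and CCN2, connective tissue growth factor, at 124 against 277. With IL1β THBS2 was 341 against 104, near background, with PBS, at least 3.15-fold higher, and THBS3 was 127 against 336, 2.65-fold lower. The median log2 differences over all 24 were -0.16, -0.15 and 0.49 with TNFα, IL1β and LPS, against -0.03, -0.03 and 0.02 over all genes.

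**Figure D3:**
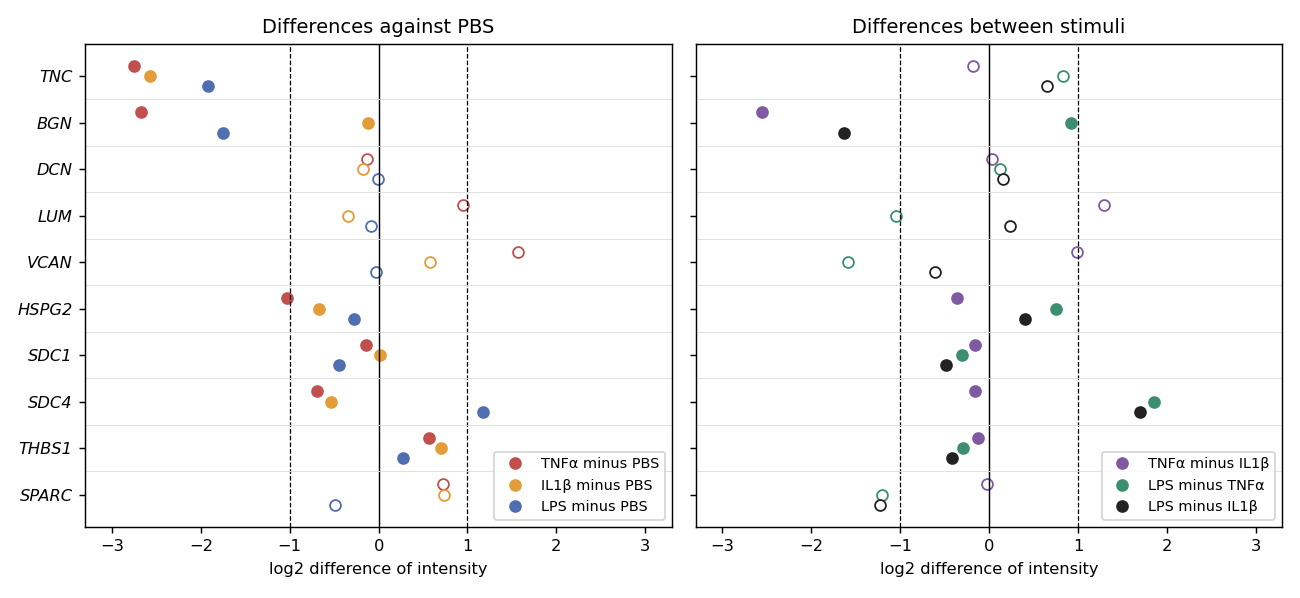
The log2 difference of intensity between 2 arrays (horizontal axis) is plotted for each of the 10 genes (vertical axis), against PBS on the left and between stimuli on the right, with dashed lines at 2-fold. Filled points were tested and open points were below the floor on both arrays; TNC lies left of the line for all 3 stimuli, BGN for TNFα and LPS, and SDC4 right of it for LPS alone.

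With TNFα against PBS, 3 of the 10 genes were lower (TNC, BGN and HSPG2) and none higher, where 3.40% of 9419 genes tested were lower, 3.37% higher and 6.76% either. With IL1β 1 was lower (TNC) and none higher, where 3.57% of 9427 genes tested were lower, 3.13% higher and 6.70% either. With LPS 2 were lower (TNC and BGN) and 1 higher (SDC4), where 7.42% of 9675 genes tested were lower, 8.83% higher and 16.2% either. In each of these comparisons 6 of the 10 genes were tested. TNC was tested only through its PBS value in all 3, and so was BGN with TNFα. In those cases the tested state and the difference are not independent. Over all 10 genes the median log2 difference was -0.14 with TNFα, -0.15 with IL1β and -0.19 with LPS, against -0.03, -0.03 and 0.02 over all genes, tested or not. TNFα minus IL1β called BGN alone, lower, among 5 members tested, where 1.87% of 9270 genes were higher, 1.74% lower and 3.60% either. There BGN was tested only through its IL1β value, so the same limit holds. LPS minus TNFα called SDC4 alone, higher, where 9.93% of 9655 genes were higher, 7.09% lower and 17.0% either. LPS minus IL1β called SDC4 higher and BGN lower, where 10.5% of 9707 genes were higher, 7.45% lower and 18.0% either.

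Only a second probe set can check a single one on these arrays. Over 683 genes with a second set at the floor, the spread between 2 sets of a gene in TNFα minus PBS had an SD of 0.59 on the log2 scale. For IL1β it was 0.61 and for LPS 0.76. This SD lies between probe sets on the same arrays and holds no spread between cultures, so it sets no error for a difference between conditions. Of the 10 genes only DCN had a second set, and its sets disagreed.

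**Figure D4:**
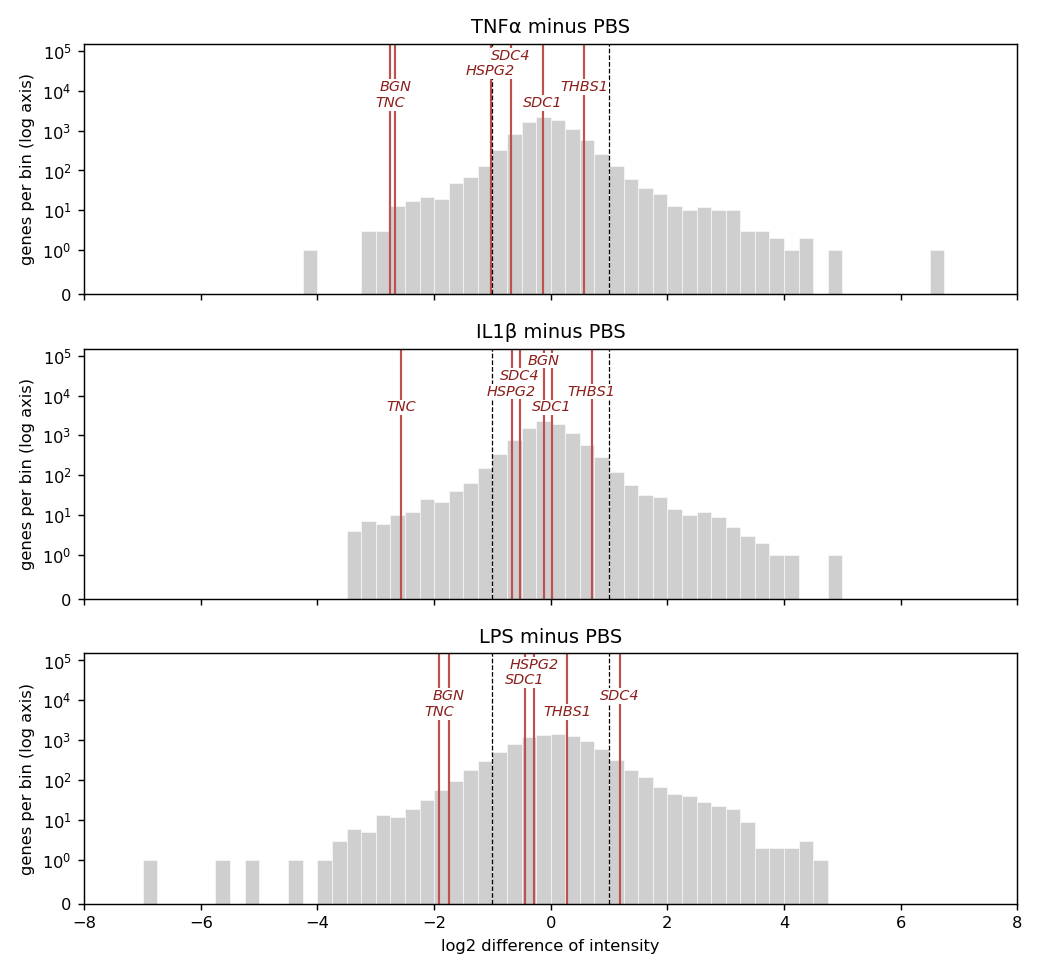
Bars count the genes tested per bin of 0.25 log2 (vertical axis, log scale) by their log2 difference from PBS (horizontal axis) for TNFα, IL1β and LPS from top to bottom, with red lines at the genes described here that were tested and dashed lines at 2-fold. TNC lies in the lower tail in all 3 panels, BGN in the lower tail with TNFα and LPS and near 0 with IL1β, and SDC1 and THBS1 lie within 2-fold throughout.

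Of 39 enzymes that build and trim the sugar chains of these proteoglycans, 22 were tested with TNFα, 23 with IL1β and 24 with LPS. Of those, 1 was lower and none higher with TNFα, 2 higher and 2 lower with IL1β, and 3 higher and 2 lower with LPS, beside the 6.76%, 6.70% and 16.2% of all genes tested. The median log2 differences over all 39, genes below the floor included, were 0.22, 0.19 and 0.16 in that order. Over all genes they were -0.03, -0.03 and 0.02. SULF2, an extracellular sulfatase that trims heparan sulfate, was 257 with TNFα, 305 with IL1β and 312 with LPS, against 614 with PBS. Its log2 differences were -1.26, -1.01 and -0.98 in that order, the last just short of 2-fold. With IL1β the xylosyltransferases that start the chains were both higher. XYLT1 was 398 with IL1β against 37.5, near background, with PBS, at least 3.67-fold higher, and XYLT2 was 489 against 232. CHST3, a chondroitin sulfotransferase, was 207 with IL1β against 595. With LPS the chondroitin polymerising factor CHPF was 427 against 1365 with PBS, 3.20-fold lower, and HS6ST1, a heparan sulfate sulfotransferase, was 454 against 1090.5. B3GALT6, of the linker region, was 1903 with LPS against 839, and UST, a uronyl sulfotransferase, was 329 against 111. UGDH, which makes the sugar donor UDP-glucuronate, was the other higher gene with LPS.

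Of 24 receptors and partners of these genes measured, 18 were tested with TNFα, 17 with IL1β and 17 with LPS. Of those, 2 were higher and 1 lower with TNFα, 1 higher and 1 lower with IL1β, and 1 higher and 2 lower with LPS, where 6.76%, 6.70% and 16.2% of all genes tested were called. ITGB1, the β1 integrin subunit shared by most matrix receptors, was 4252, 3486 and 4330.1 with TNFα, IL1β and LPS, against 616 with PBS. ITGA6, which pairs with it to bind laminin, was 275, 177 and 289.5 with TNFα, IL1β and LPS, against 800.4 with PBS. CASK, a scaffold that binds the syndecan tail, was 546 with LPS against 1438, 2.63-fold lower. ITGB1 and ITGA6 thus stood apart from the PBS array with each stimulus, in opposite directions, and share that array.

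Of 27 proteases known to cut tenascins, proteoglycans or syndecans, 10 were tested with TNFα, 10 with IL1β and 11 with LPS. Of those, 3 were higher and none lower with TNFα and with IL1β, and 6 were higher and 2 lower with LPS, where 6.76%, 6.70% and 16.2% of all genes tested were called. With each cytokine the higher ones were MMP3, MMP14 and ADAM17, measured against the same PBS array. MMP3, stromelysin 1, which cuts tenascin C and many proteoglycans, was 2055, 802 and 988 with TNFα, IL1β and LPS, against 124 with PBS. MMP14, a membrane-bound collagenase that also sheds syndecan 1, was 1432, 436 and 772, against 139.5. ADAM17, a sheddase of syndecans, was 3117, 2209 and 4359, against 1082. With LPS MMP13, a collagenase, was 1474 against 364. ADAMTS1 and BMP1 completed the higher genes with LPS, and ADAM10 and MMP2 were the lower ones. Among genes of TGF-β supply and response, LTBP3, which holds latent TGF-β in the matrix, was 244, 317 and 296 with TNFα, IL1β and LPS, against 659.7 with PBS. Its relative LTBP1 was 499.6 with IL1β against 230.1 with PBS, 2.17-fold higher.

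**Figure D5:**
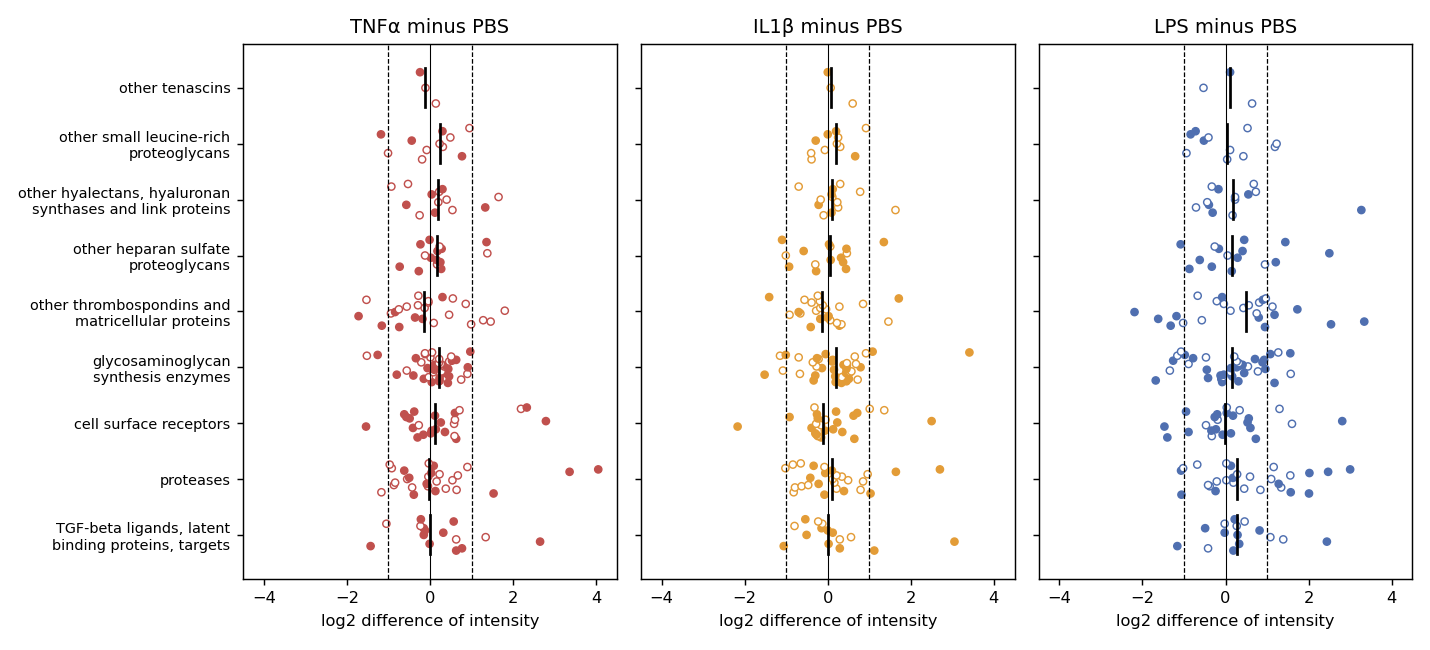
Each point is 1 gene of a related group, placed by its log2 difference from PBS (horizontal axis) with TNFα, IL1β and LPS from left to right; filled points reached the floor on either array, bars mark the group's median over all its measured genes and dashed lines stand at 2-fold. Among other thrombospondins and matricellular proteins 4 genes were higher and 4 lower with LPS, and among proteases 6 were higher and 2 lower.

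For the 4 genes that met the size rule against PBS, the 3 most alike profiles were looked up among 8543 named genes with a mean level at the floor, by the Euclidean distance between log2 levels over the 4 arrays, each minus its own mean. Nearest to TNC were SOCS3, a feedback inhibitor of cytokine signalling (distance 0.27), the phosphatase PTPN11 (0.28) and the growth factor BMP4 (0.35). SOCS3 had 163, 170.4 and 225 with TNFα, IL1β and LPS, against 934 with PBS. BGN had no such close match: LGALS3, galectin 3, lay at 0.61, FBLN2 at 0.74 and the lipid droplet protein PLIN2 at 0.77. LGALS3 had 918, 3219 and 1051 with TNFα, IL1β and LPS, against 3757 with PBS, and FBLN2 had 409, 1372 and 595, against 1351. Nearest to HSPG2 were RPUSD4 (0.05), KLHL15 (0.09) and SNX14 (0.11). Nearest to SDC4 were HAGH (0.05), CENPW (0.12) and PLAUR, the urokinase receptor (0.15), which had 455, 510.4 and 1528 with TNFα, IL1β and LPS, against 649.6 with PBS. Over 4 values many genes come close, and the distances describe these arrays only.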

How the data were processed

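Per the labels' protocols, cDNA made from total RNA carried 1 dye, Cy3 (NimbleGen labelling kit), and each condition had 1 array. Per the file headers and names, the authors deposited a linear RMA intensity for each probe set of usually 3 probes; the software is not named in the sources used here. RMA in its usual form equalises the arrays' distributions, so a difference is relative to most genes. The authors' series table held the same intensity for all 45033 probe sets. Accessions without versions matched 18866 probe sets (41.9%) to 1 RefSeq symbol (GRCh38.p14, used for names and promoters), and a gene took its probe set of highest mean log2 intensity.

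With 1 array per condition no p-value was computed. On simulated data the size rule was tested with known folds. The members and gene lists were chosen with earlier results of these data known. Named were all 10 members, up to 4 called genes of each list per comparison with PBS by size, and the 3 most alike profiles. Added after their values were seen were FBLN5, COMP, UGDH, ADAMTS1, BMP1, ADAM10, MMP2, TNXB, TLR2, the cell type markers named, and CCN2 and FBLN2 with LPS. Some genes that the rule selects are left out of the text. Alternatives changed the floor, the probe set rule, the normalization, the offset, the fold and the table used. Tools were pandas 2.3.3, numpy 2.4.6, statsmodels 0.14.6 and matplotlib 3.10.9 in Python 3.11.15.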

Additional observations from a re-analysis of the deposited data

How the results depend on the processing

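No paired analysis was possible because each condition has 1 array and the labels give no replicate numbers. Of 54 counts of members under an alternative, 50 stayed within 1.5 times the main count. At 1.5-fold the count was 3 for IL1β minus PBS and 3 for LPS minus TNFα, each 1 in the report. Of all genes tested, 21.4% and 40.3% were then called, against 6.70% and 17.0% in the report. Without a floor the count was 2 for TNFα minus IL1β and 4 for LPS minus TNFα, again each 1 in the report, through LUM, VCAN and SPARC. Of all genes, 5.51% and 16.5% were then called, against 3.60% and 17.0% of those tested in the report. At 3-fold SDC4 was no longer called with LPS against PBS; TNC and BGN kept each of their calls under all 9 alternatives for the counts. Single differences kept their sign for every called member, and 3 of 300 were moved. These totals include alternatives that had little or no room to move. The authors' series table held identical intensities, so it could move no count and no difference. The mean of all probe sets could change the difference of DCN alone. HSPG2 with TNFα missed 2-fold after loess centring and with the offset of 50.9. The third was LUM, near background on both arrays, for TNFα minus IL1β (0.67 with the offset).

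The median of the members depended on which were counted. With the 6 members whose mean level was at the floor it was -0.86 for TNFα, -0.32 for IL1β and -0.37 for LPS against PBS, 0.79 for LPS minus TNFα (-0.08 in the report's setting, thus reversed) and -0.01 for LPS minus IL1β (-0.13). With the mean of all probe sets, which changes DCN alone, it was -0.28 for TNFα minus PBS and 0.03 for LPS minus TNFα, again reversed. Dim signal limits LUM and SPARC, near background on every array, and VCAN, near background on 3.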
